A study of Homo sapiens with 8 samples.

Results

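FAIRE-seq peaks were listed not only on the chromosomes but also on GRCh38 sequences without a place on them and on decoy sequences added to the reference. The peaks on these other sequences are described here. They are all peaks whose sequence name was not one of chromosomes 1 to 22, X, Y or the mitochondrial genome, and they numbered 688 of the 196601 peaks in the 8 lists, or 0.350%. Joining those with an overlap of 1 bp or more gave 258 of 52365 regions. The regions lay on 148 sequences of 3 kinds, namely 24 unlocalised, 21 unplaced and 103 decoy sequences.

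The study asked whether ZBTB48, a zinc finger protein that binds telomeric repeats and promoters, opens chromatin in U2OS, a human osteosarcoma cell line. FAIRE-seq sequences DNA that stays free of protein after formaldehyde crosslinking and phenol-chloroform extraction, and was run on 4 clones. WT_4 and WT_5 were wild type (WT), while KO_C5 and KO_D2 carried a knockout (KO) of ZBTB48, so that each genotype stands on 2 clones of 1 cell line. Every clone gave 1 untreated library and 1 library after 250 U/ml interferon gamma (IFNγ), for 24 h by the labels and for longer by the study's text, so the duration is uncertain. Replicate 1 is WT_4 or KO_C5 and replicate 2 is WT_5 or KO_D2, and values of a group are given in that order.

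Unlocalised sequences are assigned to a chromosome without a position, and unplaced sequences to none. Decoy sequences are human or viral pieces added to a reference so that reads which fit nowhere in the assembly have somewhere to go, and the decoys listed here bear names of human genomic pieces. Much of this sequence is repeated, with ribosomal DNA (the tandem genes for the large ribosomal RNA precursor), alpha satellite (the tandem repeat of centromeres) and the GGAAT satellites beside the centromeres as known examples. A read from a repeat can fit many copies, and the authors removed reads of mapping quality under 30, so that a listed peak rests on reads that fitted the named copy best.

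The sequences below are 200 bases around the summit of 5 regions that the results turn on, on the plus strand of GRCh38. The first 2 come from ribosomal DNA, and their capitals mark CpG dinucleotides.
chrUn_GL000220v1:119787-119986: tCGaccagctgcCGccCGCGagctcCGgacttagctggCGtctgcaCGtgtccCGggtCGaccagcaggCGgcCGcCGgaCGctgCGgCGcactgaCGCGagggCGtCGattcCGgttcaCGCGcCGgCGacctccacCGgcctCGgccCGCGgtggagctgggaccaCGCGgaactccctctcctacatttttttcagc
chr22_KI270733v1_random:168896-169095: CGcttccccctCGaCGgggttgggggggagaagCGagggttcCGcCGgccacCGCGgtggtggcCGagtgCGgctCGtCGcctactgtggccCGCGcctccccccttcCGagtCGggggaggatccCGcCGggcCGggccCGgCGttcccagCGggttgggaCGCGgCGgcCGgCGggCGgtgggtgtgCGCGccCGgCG
The next is an alpha satellite copy, and its capitals mark a match on the minus strand to the CENP-B box, the motif bound by the centromere protein CENP-B.
chrUn_KI270391v1:497-696: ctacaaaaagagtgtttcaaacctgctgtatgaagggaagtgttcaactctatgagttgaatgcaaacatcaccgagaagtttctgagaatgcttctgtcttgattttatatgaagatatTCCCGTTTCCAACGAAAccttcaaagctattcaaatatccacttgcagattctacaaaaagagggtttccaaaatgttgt
The fourth is an AT-rich repeat of the region with the lowest GC content among unlocalised and unplaced regions found in every library, and it holds 0 CpG dinucleotides, so that no base is in capitals.
chrUn_KI270467v1:3332-3531: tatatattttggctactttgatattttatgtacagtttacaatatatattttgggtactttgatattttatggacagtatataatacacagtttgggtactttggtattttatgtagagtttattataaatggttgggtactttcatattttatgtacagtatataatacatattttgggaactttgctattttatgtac
The last is a GGAAT satellite, with each pair of adjoining GGAAT units in capitals.
chrUn_KI270438v1:103961-104160: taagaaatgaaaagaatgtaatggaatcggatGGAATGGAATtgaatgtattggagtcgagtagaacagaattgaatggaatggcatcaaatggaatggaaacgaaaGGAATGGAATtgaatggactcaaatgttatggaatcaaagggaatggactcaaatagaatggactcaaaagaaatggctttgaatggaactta

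Decoy sequences held the largest number of the peaks, 325 of 688 (47.2%), followed by unlocalised sequences with 199 and unplaced sequences with 164. The decoy peaks were spread thinly. They formed 144 regions on 103 sequences, 80 of which had a single region, and 45 of which had a peak in 1 library only. Unlocalised sequences carried 71 regions and unplaced sequences 43. Of the sequences in the reference, 24 of 42 unlocalised and 21 of 127 unplaced ones had a peak in some library. Only 3 unlocalised, 7 unplaced and 6 decoy sequences had a peak in each of the 8 libraries. The 2 with the most regions, 11 each, differed in how often these recurred. chr22_KI270733v1_random, which holds ribosomal DNA, had 41 peaks, and 3 of its 11 regions were found in all 8 libraries. chrUn_KN707963v1_decoy had 12 peaks, and 10 of its 11 regions were found in 1 library only. Of those 12 peaks, 10 came from untreated KO replicate 1. The next sequences were chr17_KI270729v1_random with 9 regions, chrUn_KI270747v1 and chr1_KI270709v1_random with 7 each, and chrUn_KN707896v1_decoy and chr14_GL000194v1_random with 6 each.

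The number of these peaks per library was 109 and 87 in untreated WT, 94 and 56 in untreated KO, 49 and 120 in IFNγ-treated WT and 95 and 78 in IFNγ-treated KO libraries. The number tracked neither genotype nor treatment, since the highest and the lowest values, 120 and 49, both came from IFNγ-treated WT clones. IFNγ was followed by 60 fewer peaks in WT_4, 33 more in WT_5, 1 more in KO_C5 and 22 more in KO_D2. The mean difference between IFNγ and untreated libraries was -1 peak and that between WT and KO was 10.5, against a standard deviation (SD) between replicates of 30.1 peaks. As a share of its list, a library held 0.499 and 0.293 in untreated WT, 0.486 and 0.334 in untreated KO, 0.258 and 0.319 in IFNγ-treated WT and 0.345 and 0.314 in IFNγ-treated KO libraries, in percent. The shares overlapped between genotypes and between treatments. The low count of IFNγ-treated WT replicate 1 lay in the decoys, of which it had 11 peaks while the other libraries had 25 to 64. Its counts on unlocalised and unplaced sequences, 20 and 18, were within the range of the others.

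**Figure D1:**
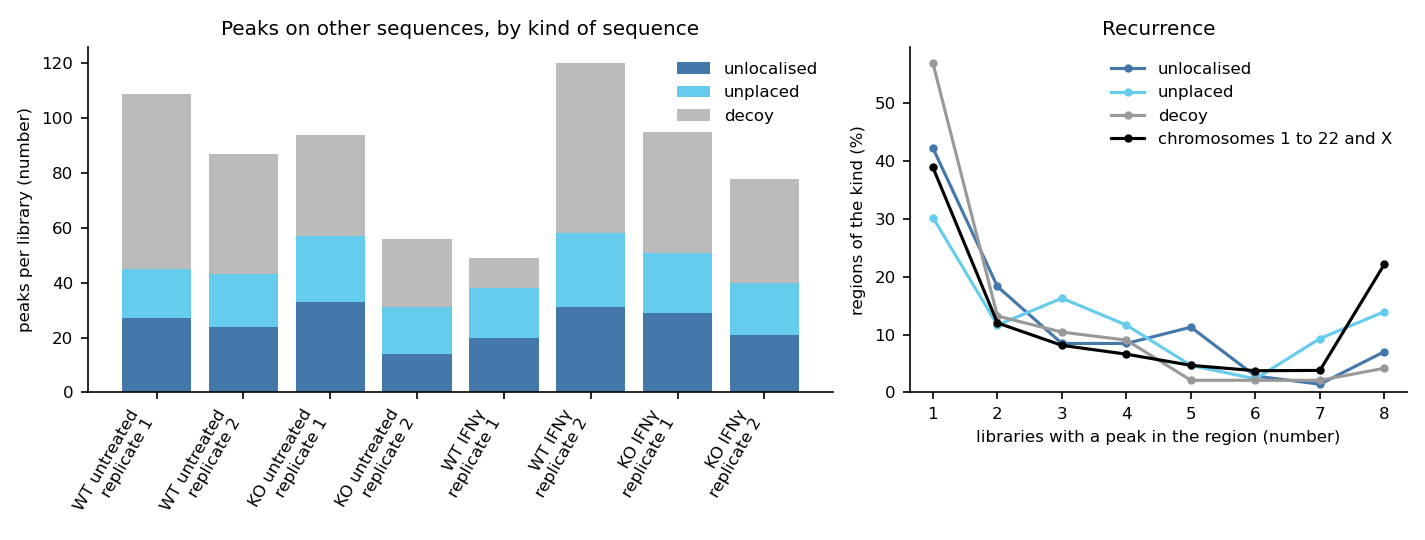
Left, number of peaks on unlocalised, unplaced and decoy sequences in each library, as stacked bars. Right, share of the regions of each kind (in percent) that had a peak in 1 to 8 libraries, with chromosomes 1 to 22 and X in black. IFNγ-treated WT replicate 1 has 11 decoy peaks, and 22.2% of chromosomal regions but 4.17% of decoy regions were found in all 8 libraries.

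The regions recurred less over the libraries than those of the whole series. Of the 258 regions, 125 (48.4%) had a peak in 1 library, against 39% of all regions, and 17 (6.59%) had one in all 8, against 22.1% of all regions. By kind, 82 of 144 decoy, 30 of 71 unlocalised and 13 of 43 unplaced regions were found in 1 library. The 17 regions found in every library comprised 6 decoy, 5 unlocalised and 6 unplaced ones. Untreated WT replicate 1 was the largest source of regions seen once, with 38 of its 106 regions (35.8%) found nowhere else, against 15.9% of all regions in its list. In untreated KO replicate 1 the same held for 25 of 92 regions (27.2%), against 10.1% of all its regions. Without untreated WT replicate 1, 98 regions were found in 1 library. Libraries of 1 clone before and after IFNγ shared on average 37.7% of the regions that either had (25.0 to 50.4%, 4 pairs), libraries of different clones of a genotype 31.1% (23.7 to 36.6%, 8 pairs) and libraries of different genotypes 30.3% (24.0 to 41.6%, 16 pairs). For all regions of the series these means were 58.3%, 50.8% and 53.6%.

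The peaks were narrower and weaker than the rest of each list. Their median width was 336 bp, against 387 bp over all peaks, and their median fold enrichment (the fragment pileup at the summit over the local background) was 6.79, against 11.2. By library the median width was 342 and 345 in untreated WT, 318 and 348 in untreated KO, 321 and 355 in IFNγ-treated WT and 316 and 318 in IFNγ-treated KO libraries, in bp. The 2 highest of these, 355 and 348.5 bp, came from IFNγ-treated WT and untreated KO libraries. The median fold was 6.04 and 6.42 in untreated WT, 6.33 and 7.44 in untreated KO, 7.02 and 6.78 in IFNγ-treated WT and 8.03 and 6.04 in IFNγ-treated KO libraries. In each library this was below the median of the whole list, which ranged from 9.20 to 14.3. The percentile of −log10 p within a list runs from the weakest peak to 100 for the strongest, and its median over these peaks was 21.6 and 33.8 in untreated WT, 18.9 and 17.7 in untreated KO, 24.4 and 34.3 in IFNγ-treated WT and 28.5 and 23.2 in IFNγ-treated KO libraries. Between 38.3 and 58.9% of a library's peaks fell into the weakest 25% of the list, and 1.83 to 8.93% into the strongest 10%. Decoy peaks had the lowest median percentile, 20.1, unlocalised peaks had 25.5 and unplaced peaks 38.6.

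Neither genotype nor IFNγ separated these medians. WT minus KO was 15.6 bp for width (SD between replicates 16.3 bp), -0.39 for fold (SD 0.822) and 6.44 for percentile (SD 5.89), and IFNγ minus untreated was -10.6 bp, 0.41 and 4.61. No test was run on these summaries. The ranges of WT and KO libraries overlapped for each of the 3 medians, as did those of IFNγ and untreated libraries. The median percentile was higher after IFNγ in 4 of 4 clones, by 0.545 to 9.54 points. With each list cut to its 16788 strongest peaks, IFNγ minus untreated was 3.85 points and WT minus KO turned to -8.97 points.

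Few regions followed genotype or treatment in every library. A peak in all 4 WT and in no KO library was found for 1 of the 258 regions (0.206% of all regions), chrUn_JTFH01000837v1_decoy:106-1033, with folds of 5.43 to 10.3. A peak in all 4 KO and in no WT library was found for 1 region (0.0134% of all regions), chrUn_KI270587v1:857-2157, where the fold was 15.3 and 7.38 in untreated KO and 7.54 and 4.07 in IFNγ-treated KO libraries. The summit of the latter had 11 to 26 fragments, with 36.3% GC and bases that were 60.5% identical at a lag of 171 bases, the repeat length of alpha satellite. Without IFNγ-treated KO replicate 2, WT-only and KO-only regions came to 7 in place of 2, and to 5 without IFNγ-treated WT replicate 1. A peak in every IFNγ and in no untreated library was found for 0 regions (0.126% of all regions), and the reverse for 0 regions (0.00191%).

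Within 1 treatment or 1 genotype the patterns rest on 4 libraries each. Among untreated libraries, a WT-only pattern was seen at 14 of 197 regions (3.46% of all regions) and a KO-only one at 7 (0.26%). After IFNγ these were 7 and 4 of 173 regions (1.38% and 0.938%). In WT clones 6 of 191 regions were gained with IFNγ (0.852%) and 2 lost (0.511%). In KO clones 10 of 168 were gained (10.4%) and 1 lost (0.247%), so that the share of gained regions in KO clones, 5.95%, was below that of the whole series. Of those 10, 8 were decoy regions, led by chrUn_KN707775v1_decoy:3907-4591 with folds of 10.6 and 13.8 over 39 to 58 fragments. In WT clones the gained region with the highest percentile was chrUn_GL000220v1:120801-121121, in the spacer past the ribosomal RNA gene, with folds of 6.81 and 11.5. The 5 WT-only regions of the untreated libraries with the highest percentiles had folds of 4.23 to 10.3 and summits of 6 to 17 fragments.

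Ribosomal DNA gave the strongest peaks among the 17 regions found in every library, called recurrent here. On GRCh38, chrUn_GL000220v1 carries RNA45SN5 and chr22_KI270733v1_random carries RNA45SN4, the genes of the 45S precursor from which the 18S, 5.8S and 28S ribosomal RNAs are cut, and each carries a further copy of the 18S gene (RNA18SP3 and RNA18SP4) that is 100% identical to it. Gene positions are those of the annotation of GRCh38 used here. In chrUn_GL000220v1:119746-120145, with its summit 1107 bp past the end of RNA45SN5, the fold was 78.4 and 51.1 in untreated WT, 24.6 and 47.2 in untreated KO, 64.5 and 83.4 in IFNγ-treated WT and 24.2 and 36.3 in IFNγ-treated KO libraries. Its percentile was 97.4 to 100 in all 8 libraries, with 322 to 674 fragments at the summit. Folds of WT libraries (51.1 to 83.4) all lay above those of KO libraries (24.2 to 47.2), an order found at 22.7% of the regions present in all libraries. The local background, in multiples of the lowest background of the library, was 6.70 to 7.93 in WT and 16.3 to 17.1 in KO libraries.

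The second strongest recurrent region, chr22_KI270733v1_random:168720-169275, had its summit 1642 bp into a second 45S unit whose start was placed from RNA18SP4, in the part transcribed before the 18S gene. There the fold was 148 and 63.7 in untreated WT, 28.9 and 67.3 in untreated KO, 112 and 88.7 in IFNγ-treated WT and 45.1 and 70.9 in IFNγ-treated KO libraries. WT and KO overlapped, at 63.7 to 148 and 28.9 to 70.9, and percentiles were 78.2 to 99.8. The other 2 recurrent regions of this sequence were weaker. One, chr22_KI270733v1_random:135169-136242, covered the 3′ ends of RNA28SN4 and RNA45SN4 with its summit 74 bp past the latter, and had folds of 13.4 to 29.6. The other, chr22_KI270733v1_random:173085-173369, had its summit 321 bp after RNA18SP4, in the spacer before the 5.8S gene, and had folds of 10.9 to 36.3. GC content was 71.0 to 81.7% in the 300 bases around the summits of these 4 regions. The 9 remaining regions on both sequences lay mostly in the spacer between units and were found in 1 to 4 libraries. For 3 of the 4 recurrent regions the best chromosomal match, on chromosome 21 at 99 to 99.6% identity, had no peak in any library, though another match of the chrUn_GL000220v1 region had one in all 8, as did the best match of the 3′ end region at chr21:8218830-8219899.

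**Figure D2:**
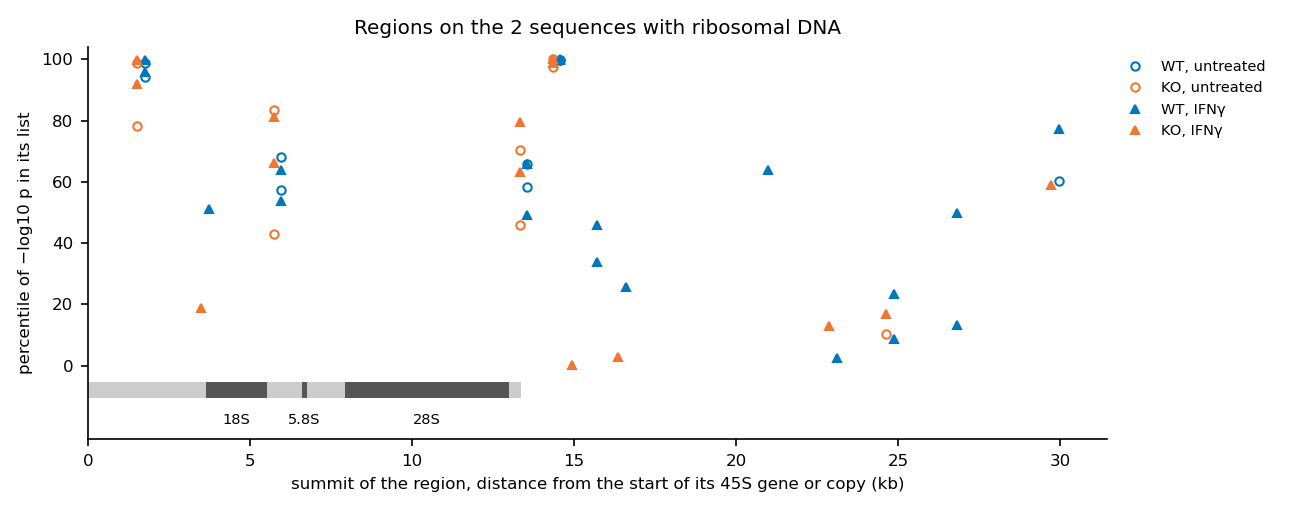
Percentile of −log10 p within its list for each peak on chrUn_GL000220v1 and chr22_KI270733v1_random, against the distance (kb) of the region's summit from the start of its 45S gene or copy, 1 point per library, with WT points moved right and KO points left by 0.12 kb. Grey bars give the 45S gene (light) and the 18S, 5.8S and 28S genes (dark). Points of all 8 libraries stand at 4 positions, and the pair near the 5′ start and past the 3′ end of the gene reach the highest percentiles.

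A second group is called alpha satellite here, by its CENP-B box and its many chromosomal copies. Of the 17 recurrent regions, chrUn_KI270391v1:147-999, chrUn_KI270393v1:270-816 and chrUn_KI270411v1:1161-1515 each hold 1 CENP-B box and had 51 to 99 full matches (at least 90% identity over at least 80% of the region, counted up to 50 per chromosome) on chromosomes. They lie on sequences of only 1484, 1308 and 2646 bp. In chrUn_KI270391v1 the fold was 19.5 and 24.8 in untreated WT, 83.8 and 57.2 in untreated KO, 27.0 and 22 in IFNγ-treated WT and 88.7 and 21.2 in IFNγ-treated KO libraries. KO exceeded WT there except in IFNγ-treated KO replicate 2. The fold of chrUn_KI270393v1 was 13.6 and 16.7 in untreated WT, 32.6 and 23.4 in untreated KO, 18.6 and 15.6 in IFNγ-treated WT and 40.9 and 8.18 in IFNγ-treated KO libraries. The fold of chrUn_KI270411v1 was 6.48 and 3.46 in untreated WT, 19.0 and 17.7 in untreated KO, 11.5 and 6.08 in IFNγ-treated WT and 18.9 and 6.29 in IFNγ-treated KO libraries. In both, the same KO library was again low and the other 3 KO libraries stood above each WT library. On chr2_KI270716v1_random, a sequence of 153799 bp, the 4 regions that hold a CENP-B box were weaker. Their mean percentiles were 2.54 to 9.91, in 1 to 5 libraries. This does not extend to every satellite on a long sequence, since that of chrUn_KI270438v1, described below, was strong.

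At 2 further regions every KO library exceeded every WT library, an order seen at 11 of the 11570 regions found in all libraries (0.0951%). In chrUn_KN707896v1_decoy:20379-20916 the fold was 4.71 and 4.86 in untreated WT, 48.3 and 37.5 in untreated KO, 6.54 and 5.62 in IFNγ-treated WT and 36.7 and 16.8 in IFNγ-treated KO libraries. In chrUn_KI270467v1:2084-3680, the AT-rich repeat with 22.7% GC, the fold was 7.18 and 9.03 in untreated WT, 33.7 and 38.7 in untreated KO, 8.69 and 6.17 in IFNγ-treated WT and 29.9 and 18.8 in IFNγ-treated KO libraries. Both separate fully by genotype, and neither separates by treatment. The reverse, every WT fold above every KO fold, held at 2 of the 17 (22.7% of all regions), chrUn_GL000220v1:119746-120145 and chrUn_JTFH01000031v1_decoy:1244-1727. At the latter the fold was 21.7 and 16.2 in untreated WT, 8.94 and 14.6 in untreated KO, 15.9 and 15.3 in IFNγ-treated WT and 9.64 and 12.0 in IFNγ-treated KO libraries, and the local background overlapped, at 2.59 to 3.46 times the library's in WT and 2.47 to 3.02 times in KO libraries. By percentile, KO exceeded WT throughout at 2 of the 17 regions (0.303% of all regions) and WT exceeded KO at 1, the decoy region chrUn_JTFH01000031v1_decoy:1244-1727 (7.14%). In limma on clone means over all 11570 regions, WT minus KO was -3.15 ± 0.29 (log2 fold, SE, 2 clones each) for the decoy region and -2.49 ± 0.27 for chrUn_KI270467v1, with the lowest and the third lowest p of all regions. After Benjamini-Hochberg adjustment both had a limma p of 0.159, so neither was called.

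**Figure D3:**
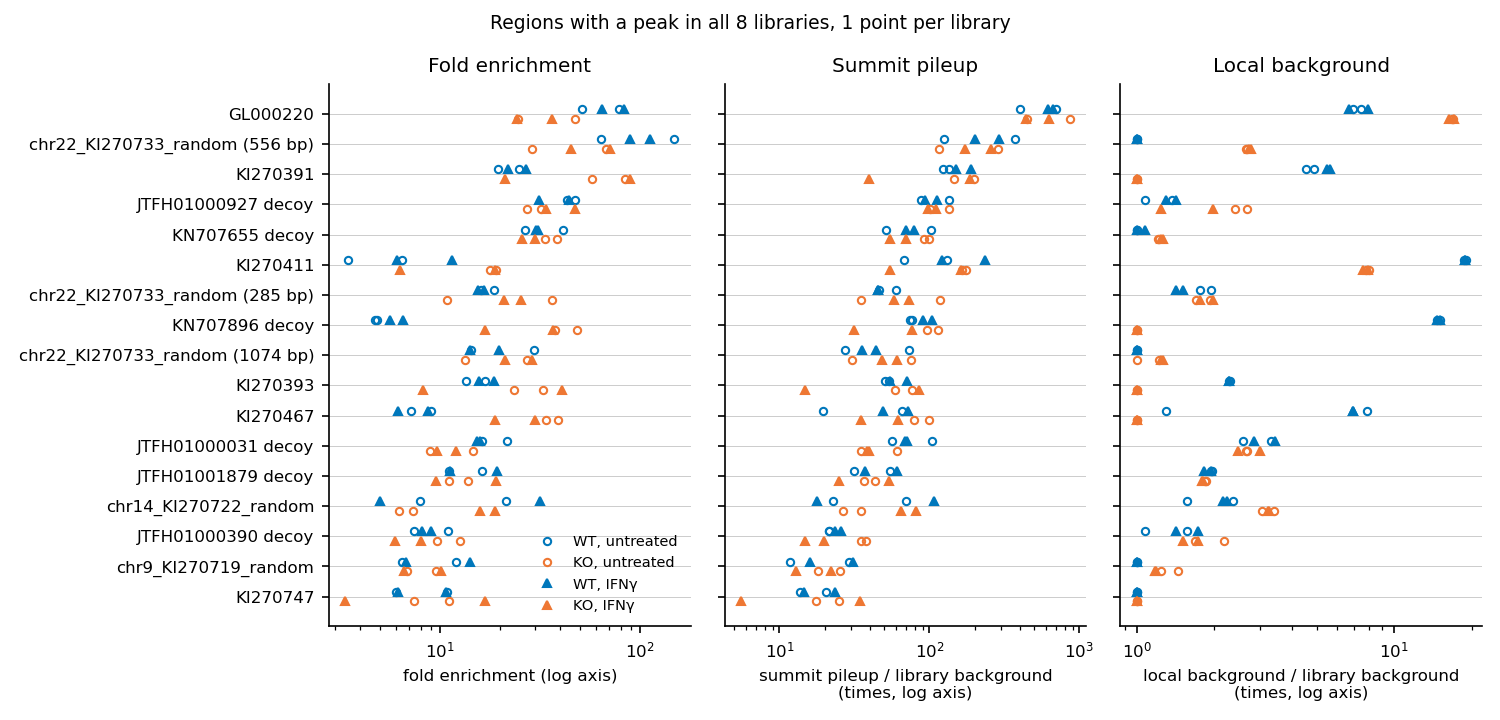
The 17 regions with a peak in all 8 libraries, from the highest mean percentile at the top, with 1 point per library. The panels give fold enrichment, summit pileup and local background, the last 2 as multiples of the library's background, on log axes. At KN707896 and KI270467 the fold is higher in all 4 KO libraries, while the pileups of WT and KO overlap and the local background of WT is up to 15.1 times the library's.

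The summit pileup and the local background behind each fold were solved from the fold and −log10 p by the Poisson formula of the peak caller. The fold was taken with 1 added to both. A whole number of fragments fitted for 99.994 to 100% of the peaks of each list. At these 5 regions the summits overlapped between genotypes, though at chrUn_KI270467v1 only narrowly. It had 20 to 45 fragments in WT (mean 36.5) and 38 to 62 in KO libraries (mean 53.3). This region joins 14 peaks, and each library is represented by its peak of highest −log10 p. Those peaks were 297 to 842 bp wide in WT and 878 to 1562 bp in KO libraries. Fold, summit and background there may thus be compared at different places within the region. WT and KO libraries had 81 to 139 and 43 to 168 fragments at chrUn_KI270391v1. They had 33 to 55 and 16 to 77 at chrUn_KI270393v1, and 69 to 145 and 59 to 147 at chrUn_KI270411v1. In chrUn_KN707896v1_decoy:20379-20916 the summit held 49 and 79 in untreated WT, 82 and 60 in untreated KO, 65 and 70 in IFNγ-treated WT and 69 and 34 in IFNγ-treated KO libraries, in fragments. The local background there was 9.61 and 15.5 in untreated WT, 0.719 and 0.626 in untreated KO, 9.09 and 11.6 in IFNγ-treated WT and 0.906 and 1.08 in IFNγ-treated KO libraries, in fragments. In multiples of the library's lowest background this was 14.6 to 15.1 in WT and 1.00 in KO libraries. At chrUn_KI270467v1 it was 1.29 to 7.82 in WT and 1.00 in KO libraries, at chrUn_KI270391v1 4.53 to 5.62 in WT and 1.00 in KO, at chrUn_KI270393v1 2.28 to 2.30 and 1.00, and at chrUn_KI270411v1 18.8 to 19.0 and 7.55 to 7.97. The limits used next were not among the planned comparisons, so the counts by them are a description. A background at least 3 times the library's in every WT library and at the library's in every KO library was found at 4 of 11570 regions (0.0346%), of which 2 were chrUn_KN707896v1_decoy:20379-20916 and chrUn_KI270391v1:147-999. The reverse was found at 1.36% of all regions and at 0 of the 17. Over all 11570 regions the local background was higher in KO, by 1.77 times in the median, while over the 17 it was 1.11 times as high. A local background higher in every WT than in every KO library was found at 5 of the 17 regions (3.49% of all regions), and the reverse at 6 (85.9%). No region among the 17 had summit pileups, relative to the library's background, that separated the genotypes (0.259% of all regions with WT above KO and 0.0605% with KO above WT).

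The local background was more alike within than between genotypes. Among libraries of a genotype its highest and lowest value lay within 1.2-fold at 73.8% of all regions in WT and 77.5% in KO, and at 10 and 12 of the 17. Its correlation across the 11570 regions (log2, relative to the library's background) was 0.960 to 0.970 between libraries of a clone, 0.946 to 0.972 between clones of a genotype and 0.512 to 0.524 between genotypes. These regions share a library and a peak caller and are not independent, so the values are a description. Input DNA was sequenced by the study, and whether it served as the background is not given in the sources used here. Since the fold contains the background, folds of the libraries of a genotype are not fully independent, and p-values for genotype may be too small. The part of the background in the differences of fold was not tested.

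For genotype, limma called 0 of the 17 regions and 0 of 11570 in all (0%) at an adjusted p under 0.05. At an unadjusted p under 0.05 there were 5 of 17, all with lower WT values, and 710 of 11570 (6.14%). The 5 are the 3 alpha satellite regions and the 2 regions at which every KO library exceeded every WT library. Their adjusted p-values were 0.159 for 2 and 0.759 for 3. Without centring, 36 regions were called in all (0.311%), among them chrUn_KN707896v1_decoy:20379-20916 with an adjusted limma p of 9.2e-06 and chrUn_KI270467v1 with 0.0102. The direction was then mixed. At an unadjusted limma p under 0.05 there were 6 of the 17, 2 with higher and 4 with lower WT values, and 2481 of 11570 (21.4%). With all libraries and the clone as a correlated block, 3 regions were called (0.0259%), among them the decoy region with an adjusted p of 0.0294. On the summit pileup over the library's background, limma called 0 regions (0%), with 49 (0.424%) at an unadjusted p under 0.05 and 0 of them among the 17.

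IFNγ did not shift the 17 regions beyond the spread between libraries. Limma called 0 of 17 and 0 of 11570 regions (0%), and at an unadjusted p under 0.05 there were 0 of 17 and 480 of 11570 (4.15%). The IFNγ minus untreated values of the 17 ran from -0.40 to 0.63 (log2 fold), and the lowest adjusted p was 0.840. Neither fold nor percentile separated IFNγ from untreated libraries at any of them, against 0.311% of all regions with every IFNγ fold above every untreated one and 0.0346% with the reverse. For the percentile these shares were 0.985% and 0.0691%. At the strongest region, chrUn_GL000220v1:119746-120145, IFNγ minus untreated was -0.01 ± 0.32 (SE). With the clone as a term, 0 of the 17 and 1 of all regions (0.00864%) were called. The largest value, 0.63 ± 0.51 at chr14_KI270722v1_random:183062-183674, came with folds of 7.9 and 21.3 in untreated WT, 6.25 and 7.35 in untreated KO, 5.02 and 31.5 in IFNγ-treated WT and 18.9 and 15.8 in IFNγ-treated KO libraries. These were higher after IFNγ in 3 of 4 clones, the exception being WT_4. No region had a called difference between the IFNγ responses of WT and KO clones (limma, 0% of all regions, lowest adjusted p of the 17, 0.709). At an unadjusted p under 0.05 there were 3 of 17, namely chr14_KI270722v1_random:183062-183674, chrUn_KI270411v1:1161-1515 and chrUn_KN707896v1_decoy:20379-20916, and 769 of 11570 (6.65%).

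The GGAAT satellite of chrUn_KI270438v1 was among the strongest peaks without recurring in each library. In chrUn_KI270438v1:103942-104247, 306 bp wide, the fold was 108 and 74.6 in untreated KO, 22.8 in IFNγ-treated WT (replicate 2 alone) and 94.7 in IFNγ-treated KO (replicate 1 alone) libraries. No other library had a peak there, so that it was KO-only among the untreated libraries, and its percentiles were 95.9 to 99 where present. At chrUn_KI270438v1:109210-110027 of the same sequence, the fold was 4.9 and 3.96 in untreated WT, 63.1 and 42.8 in untreated KO, 6.1 in IFNγ-treated WT (replicate 2 alone) and 40.2 and 21.4 in IFNγ-treated KO libraries. The KO libraries were all above the WT libraries that had a peak. Here too the summits overlapped between genotypes, with 223 and 307 in untreated WT, 314 and 198 in untreated KO, 364 in IFNγ-treated WT (replicate 2 alone) and 259 and 146 in IFNγ-treated KO libraries, in fragments. The local background was 68.2 to 76.5 times the library's in the 3 WT libraries with a peak and 5.44 to 6.04 times in the KO libraries. These 2 regions were left out of the limma fit, which took regions found in all libraries.

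Copies on the chromosomes could be counted for the 114 unlocalised and unplaced regions, since the reference used here lacks the decoys. A full match was absent for 38 regions, and 37 had 1 to 5, 18 had 6 to 49 and 21 had at least 50. The 21 with at least 50 matches had a median GC of 37.7% and a median percentile of 9.34, against 63.7% and 32.7 for those with 1 to 5. Of 75 regions whose best match was a full one, the matched place had a peak in at least 1 library for 20 and in none for 55. Such pairs include chr9_KI270719v1_random:169488-170318, found in all 8 libraries with folds of 6.42 to 14.1, whose best match at chr9:62838082-62838908 (92.8% identity, over the pseudogene PTGER4P2) had a peak in all 8 too. Another was chr1_KI270713v1_random:21586-22294, found in 6 libraries, whose match at chr1:16513845-16514556 covers RNU1-1, a gene of the U1 small nuclear RNA of the spliceosome, and had a peak in 4.

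**Figure D4:**
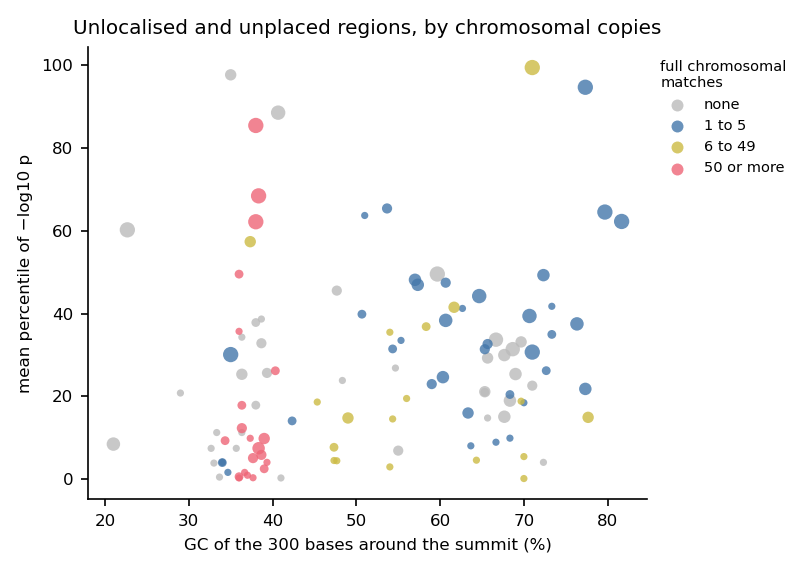
The 114 unlocalised and unplaced regions, by GC content (%) of the 300 bases around the summit and percentile of −log10 p, averaged where a peak was present. Colours give the number of full chromosomal matches, and larger points stand for more libraries (1 to 8). The regions with at least 50 matches lie at 34.3 to 40.3% GC, mostly at low percentiles, and the strongest regions lie at both ends of the GC range.

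The median GC content was 53.8% in the 300 bases around the summit, against 60% for the 52105 regions on chromosomes 1 to 22 and X, and 39.3% on the unplaced sequences alone. The ratio of observed to expected CpG was 0.648, against 0.520. Motifs were counted on both strands of these windows. A pair of adjoining GGAAT units, as in the satellites of that name, occurred in 10 of 114 windows (8.77%), against 0.226% of chromosomal windows. The CENP-B box occurred in 11 (9.65%), against 0.862%. It was in 3 of the 11 windows of recurrent regions, against 0.545% of chromosomal windows found in every library. TTAGGG, the telomere hexamer bound by ZBTB48, occurred in 1 (0.877%), against 6.81%, and GTGAGT, its scrambled control in the study, in 5 (4.39%), against 16.4%. Both hexamers were thus less frequent than in chromosomal windows. TTAGGG was in 0 of the 11 recurrent windows, against 6.38% of chromosomal windows found in every library. At that share, 11 windows are too few to show a difference. In 16 regions the bases were at least 70% identical at some lag of 2 to 400 bases. In 4 of them the lag was 160 to 180 bases, and 0 of these 4 were recurrent. A lag of 330 to 350 bases was found for 1 region, which was recurrent.

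The whole lists held 16788 to 37655 peaks, with a library background of 0.621 to 1.08 fragments and a lowest called summit of 5 or 6 fragments, which stand in for depth because peak lists hold no read totals. Peaks lay within 500 bp of the start of RUNX2 and VIM in 8 libraries, of COL1A1 in 7, of SPARC in 5 and of COL1A2 in 0, genes of bone-forming and mesenchymal cells. Of markers of other cells, EPCAM had one in 8 libraries, and PTPRC, CD3E and ALB in 0. ZBTB48 itself had a promoter peak in all 8 libraries, which does not check the knockout. The labels do not say whether libraries of a clone came from separate cultures. In the main fits, p-values for IFNγ measure the spread between these libraries. Those for genotype, and for the difference between the IFNγ responses of WT and KO clones, measure the spread between clones.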

How the data were processed

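FAIRE-seq was carried out on 8 libraries of 4 U2OS clones. Per the submitters' processing notes, the authors used Trimmomatic, Bowtie2 2.2.5, SAMtools 1.14, MACS2 2.2.7.1 and deepTools 3.5.1 with GRCh38, and removed reads of mapping quality under 30. Each deposited list was called on 1 library and gives the fold enrichment as a ratio, the −log10 p-value and the −log10 q-value, none of which is a read count. Depth is therefore unknown, and no counting interval is given. Peaks were joined by an overlap of at least 1 bp with Python 3.11.15, numpy 2.4.6 and pandas 2.3.3. Where a library had several peaks in a region, its values are those of the peak with the highest −log10 p. Genotype and IFNγ were compared with limma 3.58.1 (R 4.3.3) on log2 fold, centred on each library's median, over the 11570 regions found in all 8 libraries, with Benjamini-Hochberg adjustment. Chromosomal copies were sought with blastn 2.17.0. The fit was tested on simulated data. Named regions were those found in all 8 libraries and at most 5 per presence pattern, by mean percentile, and sequences were the 10 with the most regions or any with a region in all libraries. Regions outside this rule were named after their values were seen, among them those of chrUn_KI270438v1, chr2_KI270716v1_random and chr1_KI270713v1_random. The members and lists were chosen with earlier results of these data known. Clones pair the libraries by the labels, and deviations of paired libraries correlated at 0.691 in WT and 0.394 in KO clones. Alternatives were each library left out, no centring, a stricter −log10 q of at least 3, lists of equal length, no decoys, percentiles, the clone as a block and, chosen after seeing the data, the summit pileup. The comparisons of the local background were not planned either.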

Additional observations from a re-analysis of the deposited data

Results flagged for a closer look

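In 6 of 88 groups of 4 libraries 1 library stood apart from the rest by Dixon's test at the 95% level, given below as its gap to the nearest library over the group's range, which chance does to about 1 group in 20. The median width of the peaks in KO libraries was 348.5 bp in untreated KO replicate 2 (gap 0.923) and 316 to 318.5 bp in the other 3. Among IFNγ libraries it was 355 bp in WT replicate 2 (gap 0.872) and 316 to 321 bp in the others. The fold of chr14_KI270722v1_random:183062-183674 was 21.3 in untreated WT replicate 2 (gap 0.891) and 6.25 to 7.90 in the other untreated libraries. At chrUn_JTFH01000031v1_decoy:1244-1727 it was 21.7 in untreated WT replicate 1 (gap 0.865) and 15.3 to 16.2 in the other WT libraries. At chrUn_KI270391v1:147-999 it was 88.7 in IFNγ-treated KO replicate 1 (gap 0.914) and 21.2 to 27.0 in the other IFNγ libraries. At chrUn_KI270411v1:1161-1515 it was 6.29 in IFNγ-treated KO replicate 2 (gap 0.897) and 17.7 to 19.0 in the other KO libraries.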

How the results depend on the processing

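Of 191 alternative values of 16 results, 174 were counted as unchanged. For a difference this meant a shift smaller than the SD between replicates, whatever its sign. For a count of regions it meant a similar size, and for limma the same number of called regions. A small difference could thus change sign and still count. With 1 library left out, IFNγ minus untreated ran from -12.5 to 11.2 peaks per library, and none of these values counted as moved. With every list cut to the length of the shortest, IFNγ minus untreated turned to 8 bp for the median width and moved to 3.12 for the median fold, WT minus KO turned to -8.97 for the median percentile, 51 regions were found in 1 library, 0 were WT-only or KO-only and 1 was gained or lost with IFNγ. Without decoys, 11 regions were found in all 8 libraries, 43 in 1 and 1 was WT-only or KO-only. Leaving out 1 library at a time gave 2 to 7 WT-only or KO-only regions (4 without untreated KO replicate 2, 5 without IFNγ-treated WT replicate 1, 7 without IFNγ-treated KO replicate 2) and 0 to 1 gained or lost with IFNγ (1 without untreated WT replicate 1, IFNγ-treated WT replicate 1 or IFNγ-treated KO replicate 2).

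The number of the 17 regions called for genotype by limma was 2 without centring, which shifts the median of all regions by 0.55 (log2). With the clone as a replicate block it was 1 for genotype and 0 for IFNγ, and the block changed no other call. The adjusted p of chrUn_KN707896v1_decoy:20379-20916 ran from 9.2e-06 to 0.997 over 12 alternatives, and that of chrUn_KI270467v1 from 0.0102 to 0.997, both highest on percentiles. The lists hold no read totals, so what depth limits was not tested, and the lowest called summits had 5 or 6 fragments.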
